A study of Mus musculus with 6 samples.

Results

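The ATF4 response and the aminoacyl-tRNA synthetases were followed as 38 measured genes among the 18193 genes of a mouse microarray series. The genes were chosen by name from a list of 39, with earlier results of these data known. Pycr1, the remaining one, was not analysed here. They fell into 8 transcription factors and regulators, 4 stress effectors, 7 enzymes of amino acid and one-carbon synthesis, 7 amino acid transporters and 12 cytosolic tRNA synthetases. Where a gene had several probe sets, the brightest on average over the 6 arrays was read.

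The cells were Ba/F3, a mouse haematopoietic line of BALB/c background dependent on interleukin-3, which the labels call leukemia cells, kept in medium with WEHI-3 supernatant. All of them carried PAX5-KIDINS220 (P-K220), a fusion of the B-lineage transcription factor PAX5 with the membrane scaffold KIDINS220, under a retroviral Tet-on promoter. The Dox(-) group of 3 arrays received no doxycycline, and the Dox(+) group of 3 arrays received 500 ng/mL for 24 h, with RNA taken at the end to ask which pathways the fusion changes. No group of cells without the fusion was given doxycycline, so the drug and the fusion cannot be told apart, and the labels do not say whether the cells were 1 clone or whether the arrays of a group came from separate cultures. The p-values therefore reflect array-to-array spread that could be technical alone.

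The array codes in the sample titles begin with EA15 or EA20. EA15 held 2 arrays, 1 of each group, and EA20 held 4 arrays, 2 of each group. The labels do not say what the codes mark, so culture, RNA preparation, array handling and time cannot be told apart as sources of a difference between the blocks. Within EA20 the 2 Dox(+) arrays carry lower codes than the 2 Dox(-) arrays. Of the 2 Pax5 probe sets, 1 gave 15.6, 3.76 and 20.3 without and 119, 94.5 and 94.2 with doxycycline. The other gave 23.9, 92.0 and 81.4 without and 51.6, 133 and 48.1 with it. The brightest Kidins220 probe set gave 2289, 4154 and 3982 without and 2546, 4243 and 4438 with doxycycline. Its log2 difference with doxycycline was 0.11 (limma adjusted p 0.51), and it was 1.74-fold higher in EA20 (limma adjusted p 8.6e-06). Which of these probe sets reads the transduced fusion is not known here.

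ATF4 is the transcription factor of the integrated stress response. Kinases that sense amino acid shortage, unfolded protein, haem shortage or double-stranded RNA phosphorylate eIF2alpha, general translation falls, and Atf4 mRNA is translated more. ATF4, paired with C/EBP family proteins, then raises genes of amino acid synthesis, amino acid import and tRNA charging, together with regulators such as Ddit3 (CHOP) and Trib3. Because ATF4 is controlled largely through translation, its mRNA level does not give its protein level.

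ATF4 and C/EBP proteins bind a composite site, the C/EBP-ATF response element or CARE. The letters TGATGNAA were searched on both strands of the 300 bases from 250 before to 50 after each gene's start in RefSeq GRCm38.p6. A window was found for 32 of the 38 genes, and 13 of the 32 (40.6%) held a match, against 4.51% of the 27025 genes with windows and 3.97% of 32851 windows. The genes were listed as an ATF4 response, so this excess can follow from the choice of list and is not a result of these arrays. The 60 bases round the match are shown for 5 genes that were higher in EA15 and for 2, Chac1 and Atf3, that carried the same letters and did not pass that test. Capitals mark the match, read 5′ to 3′ on the strand of the gene, and each stretch ends before the start site.
Nupr1, chr7:126625547-126625606, minus strand: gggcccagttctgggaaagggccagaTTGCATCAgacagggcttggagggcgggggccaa
Asns, chr6:7693210-7693269, minus strand: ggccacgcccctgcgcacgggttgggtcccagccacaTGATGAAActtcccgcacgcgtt
Aars, chr8:111033704-111033763, plus strand: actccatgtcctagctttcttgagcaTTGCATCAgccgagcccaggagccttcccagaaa
Tars, chr15:11399659-11399718, minus strand: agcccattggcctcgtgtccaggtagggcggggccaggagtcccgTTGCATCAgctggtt
Slc7a11, chr3:50443646-50443705, minus strand: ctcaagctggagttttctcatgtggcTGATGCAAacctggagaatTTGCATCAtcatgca
Chac1, chr2:119351023-119351082, plus strand: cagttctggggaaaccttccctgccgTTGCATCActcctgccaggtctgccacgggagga
Atf3, chr1:191183410-191183469, minus strand: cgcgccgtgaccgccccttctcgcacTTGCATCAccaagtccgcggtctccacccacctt

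Counted from the start site, the matches of Nupr1 and Atf3 began at -110, that of Chac1 at -193, that of Asns at -23 and that of Tars at -15. Aars held one at -112 and another at 10, after the start. Slc7a11 held a pair of matches on opposite strands. Gars and Vldlr also held a match before the start, that of Slc1a4 lay across it, and those of Trib3, Yars and Iars lay after it. Of the 23 genes that had a window and were higher in EA15, 10 held a match. So did 3 of the 9 others, namely Atf3, Chac1 and Vldlr, which were all dim. A match is a description of letters and not a measured binding site, and Atf4, Psat1, Mthfd2 and Shmt2 had none in this window.

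The response differed between the array blocks more than between the treatments: over the 38 genes the median absolute log2 difference was 1.08 between blocks and 0.11 between treatments. At equal treatment 29 of the 38 genes were higher in EA15 by limma (Benjamini-Hochberg adjusted p under 0.05 over all 18193 genes), where 16.3% of all genes were, and 1 was higher in EA20, where 17.3% of all genes were. Among the 10916 genes above the 40th percentile of mean signal, to which 35 of the 38 belong, 26.1% were higher in EA15 and 28.0% in EA20. The 29 folds ran from 1.20 to 11.9, and 23 genes were at least 2-fold higher, against 4.38% of all genes. The difference was taken as EA20 minus EA15 on the log2(signal + 16) scale, which understates changes of dim genes. Its median was -1.08 over the 38 genes and 0.04 over all genes. Since the list was chosen with earlier results of these data known, the shares set beside it carry no test. In bulk RNA such as this, fewer cells with a transcript and less of it per cell cannot be told apart.

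**Figure D1:**
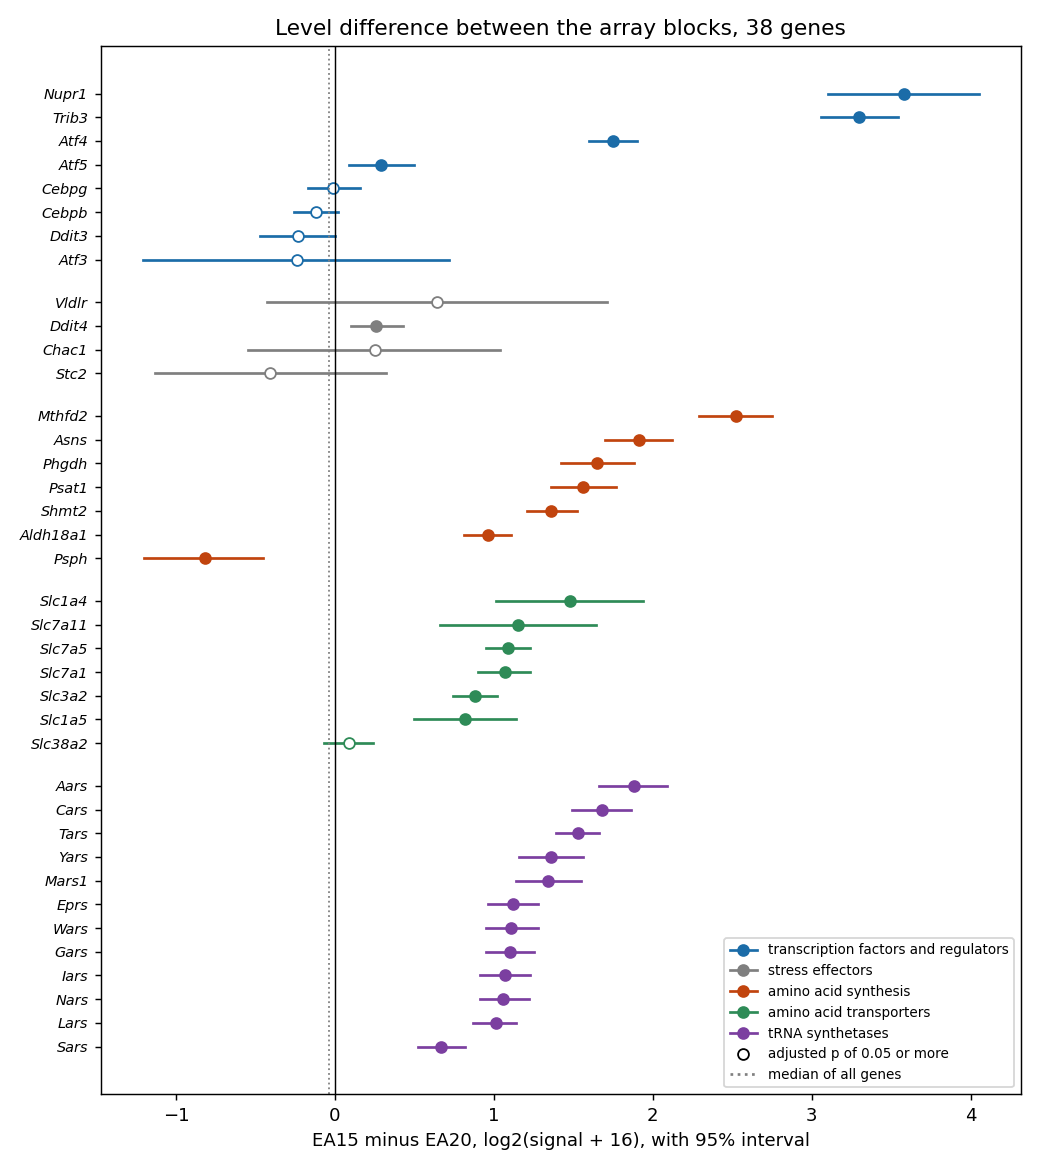
Level difference between the array blocks for the 38 genes, as EA15 minus EA20 in log2(signal + 16) at equal treatment, with 95% intervals from limma. Filled points passed the test (29 to the right of 0, and Psph to the left), open points did not, and the dotted line is the median of all genes.

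Among the regulators, Atf4, Trib3, Nupr1 and Atf5 were higher in EA15, while Ddit3, Cebpb, Cebpg and Atf3 did not pass. Atf4 had signals of 13353 without and 13675 with doxycycline in EA15, against 4302 and 3969.8 without and 3886 and 3876 with it in EA20. The EA15 arrays thus lay above all EA20 arrays and close to each other, a 3.36-fold difference (95% interval 3.04 to 3.73, limma adjusted p 2.0e-07).

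Trib3 encodes a pseudokinase that is induced by ATF4 and binds it. Its signals were 2903 without and 2658 with doxycycline in EA15, and 267 and 247 without and 298 and 259.5 with it in EA20. That is 9.86-fold (8.35 to 11.6, limma adjusted p 1.0e-07), and by the size of its fall from EA15 to EA20 Trib3 ranked 10 of 18193 genes.

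Nupr1, a small stress-induced chromatin-associated protein, ranked 6. Its signals were 1152 and 977 in EA15 and 68.8, 73.8, 64.2 and 92.8 in EA20, 11.9-fold apart (8.58 to 16.6, limma adjusted p 2.4e-06). Atf5, a relative of ATF4 under the same translational control, was only 1.23-fold higher (1.06 to 1.41, limma adjusted p 0.033).

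Ddit3, the pro-apoptotic factor CHOP, did not follow Trib3. It had signals of 385 without and 440.4 with doxycycline in EA15, and 435 and 447 without and 552 and 525 with it in EA20, so that the blocks overlapped. It was 1.18-fold higher in EA20 and did not pass (limma adjusted p 0.13).

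Cebpb and Cebpg encode C/EBP partners of ATF4. In EA15 Cebpb stood at 0.920 of its EA20 level (0.835 to 1.01) and Cebpg at 0.996 (0.890 to 1.12). Atf3, a repressor and activator induced in stress, was dim, at 7.85 to 58.0 over the 6 arrays, and its interval of 0.432 to 1.65 is too wide to place it.

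**Figure D2:**
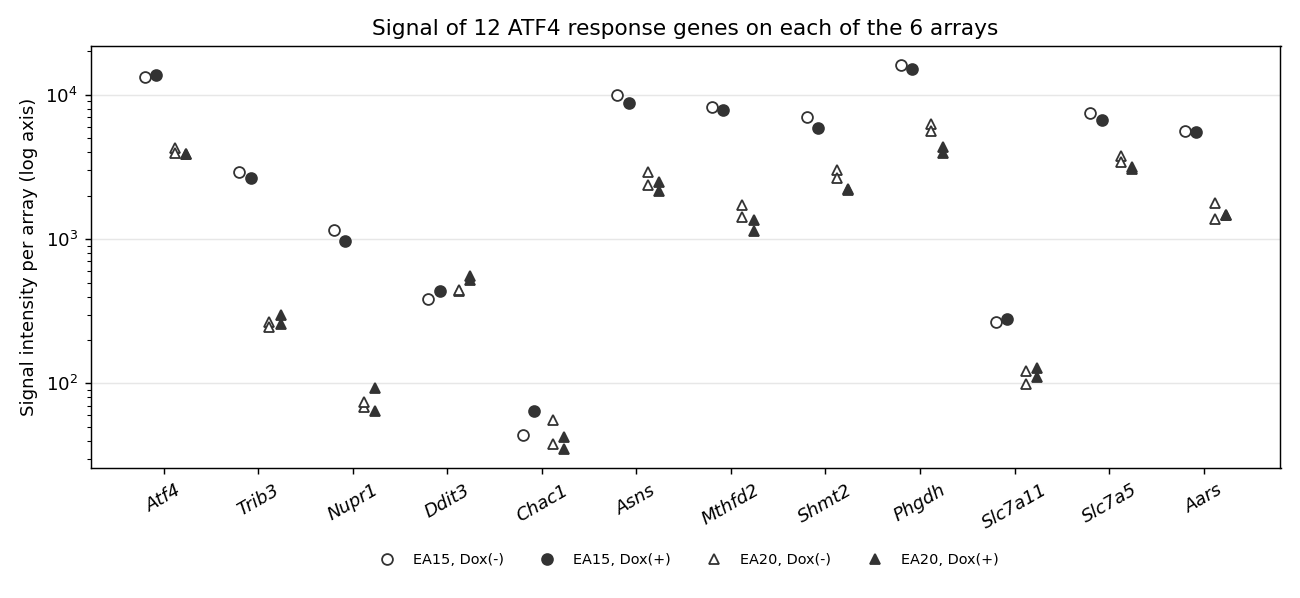
Signal intensity of 12 of the genes on each of the 6 arrays, on a log axis; circles are EA15 and triangles EA20, open without and filled with doxycycline. The 2 circles stand above all 4 triangles for every gene shown except Ddit3 and Chac1.

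The stress effectors were mostly dim. Ddit4, also called REDD1, an inhibitor of mTORC1, had 2702 and 2700.0 in EA15 and 2214, 2429, 2064 and 2294 in EA20, which is 1.20-fold (1.07 to 1.34, limma adjusted p 0.018). This was the smallest of the 29 calls. It and that of Atf5 did not hold when some single arrays were left out: Ddit4 had limma adjusted p of 0.059 without the untreated and 0.18 without the treated EA15 array, and 0.054 without replicate 2 of the Dox(+) group.

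Chac1, which breaks down glutathione, had 43.7 and 64.3 in EA15 and 35.0 to 55.9 in EA20, and did not pass (1.19-fold, 0.685 to 2.06). Vldlr, the very low density lipoprotein receptor, gave 52.1 and 40.5 in EA15 and 1.71, 25.2, 44.7 and 40.5 in EA20. Stc2, a secreted glycoprotein, gave 39.2 and 47.2 in EA15 and 52.0 to 69.2 in EA20. Neither passed, and at these signals the data do not separate a modest difference from none.

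Enzymes of serine, glycine, asparagine and proline synthesis were higher in EA15, 6 of the 7 measured, by 1.94- to 5.73-fold. Mthfd2, the mitochondrial folate enzyme downstream of serine, had 8263 without and 7846 with doxycycline in EA15, and 1712 and 1425 without and 1353 and 1138 with it in EA20. It differed by 5.73-fold (4.88 to 6.73, limma adjusted p 3.3e-07). Asns, asparagine synthetase, had 9905 and 8787 in EA15 and 2912, 2360.3, 2476 and 2168 in EA20, 3.77-fold (3.26 to 4.35, limma adjusted p 8.5e-07).

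The serine branch was split. Phgdh, which opens the pathway, had 16056 and 15022 in EA15 and 6257, 5575, 4347 and 3944 in EA20 (3.13-fold, 2.67 to 3.67). Psat1, the transaminase after it, was 2.95-fold higher in EA15 (2.56 to 3.40), and Shmt2, which makes glycine from serine in mitochondria, 2.57-fold (2.31 to 2.87), with signals of 7047 and 5896 against 3003, 2648, 2228 and 2184. Psph, the phosphatase of the last step to serine, went the other way.

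Its signals were 177 and 181 in EA15 and 296, 368, 362 and 298 in EA20. Psph was 1.77-fold higher in EA20 (limma adjusted p 0.0035), the 1 gene of the 38 called in that direction, and all EA20 arrays lay above both EA15 arrays. Aldh18a1, which starts proline synthesis from glutamate, was 1.94-fold higher in EA15 (1.75 to 2.16).

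Transporters followed in 6 of 7. Slc7a5 (LAT1) and Slc3a2 (its heavy chain CD98) form the exchanger that imports leucine and other large neutral amino acids. Slc7a5 had 7541 and 6675 in EA15 and 3753, 3422, 3139.8 and 3047 in EA20, 2.13-fold (1.93 to 2.35, limma adjusted p 2.3e-06), and Slc3a2 was 1.84-fold higher (1.67 to 2.03).

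Slc7a11 (xCT), which pairs with the same heavy chain to import cystine, was dimmer. It had 265 and 279 in EA15 and 121, 98.5, 111 and 127 in EA20 (2.22-fold, 1.58 to 3.11, limma adjusted p 0.0023), and the blocks did not overlap. Slc7a1, the cationic amino acid importer, was 2.09-fold higher, and the neutral amino acid transporters Slc1a4 and Slc1a5 were 2.78- and 1.76-fold higher.

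Slc38a2 (SNAT2), a glutamine and alanine importer that is also known as an ATF4 target, stood apart from them. It had 7696 and 7408 in EA15 and 6833 to 7631 in EA20, and its ratio of 1.06 had an interval of 0.956 to 1.18 (limma adjusted p 0.40). The interval does not reach the 1.76-fold of Slc1a5, the smallest called transporter difference.

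All 12 cytosolic tRNA synthetases were higher in EA15, by 1.59- to 3.67-fold, and on each the 2 EA15 arrays lay above the 4 EA20 arrays. Aars, which charges alanine tRNA, had 5642 without and 5561 with doxycycline in EA15, and 1775 and 1371 without and 1468 and 1469 with it in EA20. Its difference of 3.67-fold (3.16 to 4.27, limma adjusted p 1.1e-06) was the largest of the 12.

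Tars, for threonine, had 5688 and 5224 in EA15 and 2064, 1936, 1749 and 1798 in EA20, 2.88-fold (2.62 to 3.17, limma adjusted p 2.9e-07). Lars, for leucine, had 6471 and 5680.1 in EA15 and 3388, 3143, 2747 and 2814 in EA20, 2.01-fold (1.83 to 2.21, limma adjusted p 2.8e-06). Both were raised on all EA15 arrays, with the interval of Tars wholly above that of Lars.

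The others were ordered Cars (cysteine, 3.20), Yars (tyrosine, 2.57), Mars1 (methionine, 2.54), Eprs (glutamate and proline, 2.17), Wars (tryptophan, 2.17), Gars (glycine, 2.14), Iars (isoleucine, 2.10) and Nars (asparagine, 2.09), with Sars (serine) lowest at 1.59. The intervals of neighbours overlapped from Aars through Cars, Tars, Yars and Mars1 down to Lars, so that neighbours there have no order, and that of Sars (1.44 to 1.77) lay below that of Lars.

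**Figure D3:**
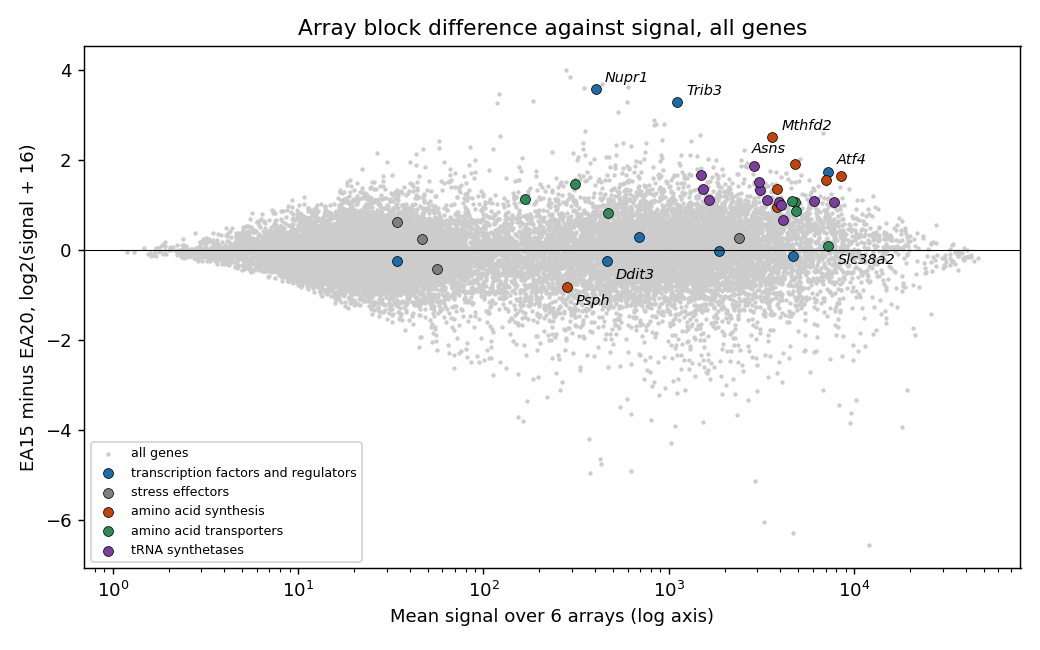
Array block difference (EA15 minus EA20, log2) against mean signal on a log axis, for all 18193 genes in grey and the 38 genes in colour. Nupr1, Trib3 and Mthfd2 lie near the upper edge of the cloud, while Ddit3, Slc38a2 and the dim stress effectors lie inside it and Psph below 0.

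The 29 genes were called on these same arrays, so a difference of the same sign in each treatment follows largely from the call. All 29 genes were lower in EA20 both without and with doxycycline: Atf4 differed by -1.69 and -1.81 on the log2 scale, Trib3 by -3.42 and -3.18, and Aars by -1.84 and -1.91. Over the 38 genes, 29 had both EA15 arrays above all 4 EA20 arrays, which 21.5% of all genes had, and 3 had them below all 4, against 24.6%. Of all genes called between blocks 51.5% were higher in EA20, but 41.4% after centring each array on its median.

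Other probe sets of the same genes mostly gave the same direction. Of 69 probe sets of the 38 genes with a mean signal over 100, 57 were higher in EA15 by limma over all 34945 named probe sets, 1 was higher in EA20, and 11 did not pass. The 69 include the brightest ones read above. The share of all probe sets of that signal was not counted. Among genes above the 40th percentile of mean signal 26.1% were higher in EA15 and 28.0% in EA20. Probe sets disagreed for Ddit3, where a dimmer one gave an EA20 minus EA15 difference of -0.66 (limma adjusted p 0.14) against 0.23 for the brightest. A second probe set of Cebpg gave -0.38 (limma adjusted p 0.011) against 0.01. Of the other bright probe sets of Eprs, 1 gave 1.14-fold and did not pass (limma adjusted p 0.059) and 1 gave 1.59-fold, against 2.17. Another probe set of Atf4, with a mean signal of 2920.1, gave -1.29 (limma adjusted p 8.7e-06), and a dim one, at 6.46, gave -0.14. With all probe sets of Atf4 averaged, the dim one included, its log2 difference was -1.06 (limma adjusted p 3.9e-05) against -1.75.

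Genes of the same pathway outside the 38 were counted from lists of known function. Among 16 other known ATF4 targets, 10 were higher in EA15 and 2 in EA20, against 16.3% and 17.3% of all genes. Of these targets 15 lay above the 40th percentile of mean signal, where the shares were 26.1% and 28.0%. Cbs, Bcat1, Slc7a3 and Vegfa did not pass. The largest folds toward EA15 were those of Gpt2, Cth and Sesn2. Gpt2, an alanine transaminase, was 4.27-fold, Cth, the cysteine-forming enzyme of transsulfuration, 4.17-fold and Sesn2, a leucine sensor upstream of mTORC1, 3.51-fold higher in EA15 (limma adjusted p 1.3e-06, 4.3e-07 and 1.9e-05). The 2 higher in EA20 were Gadd45a, a growth arrest gene also driven by p53 (3.64-fold), and Ero1a, an oxidase of the endoplasmic reticulum (1.70-fold).

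Upstream, 7 genes of eIF2alpha kinases and phosphatase subunits were measured. By limma 1 was higher in EA15 and 3 in EA20, against 16.3% and 17.3% of all genes, with folds of at most 1.44. All 7 lay above the 40th percentile of mean signal, where the shares were 26.1% and 28.0%. Gcn1, the activator of the amino acid sensor GCN2, was 1.44-fold higher in EA15 (limma adjusted p 0.047). Eif2ak4 (GCN2) was 1.42-fold, Eif2ak3 (PERK) 1.23-fold and Ppp1r15b 1.24-fold higher in EA20 (limma adjusted p 0.025, 0.026 and 0.0031). Ppp1r15a (GADD34), the stress-induced phosphatase subunit and a known ATF4 and CHOP target, had a ratio of 1.04 and did not pass (limma adjusted p 0.61).

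Cytosolic synthetases outside the 38 were higher in EA15 in 5 of 7 (Farsb, Hars, Kars, Rars and Vars, 1.55- to 2.68-fold), and Farsa and Qars did not pass. Farsa and Farsb encode the 2 subunits of 1 enzyme, for phenylalanine: Farsb was 2.68-fold higher in EA15 and Farsa stood at 0.936 of its EA20 level. The multisynthetase complex scaffold genes Aimp1, Aimp2 and Eef1e1 were 1.29-, 1.45- and 1.71-fold higher. Mitochondrial synthetases, encoded by separate genes apart from a few, were higher in EA15 in 7 of 16. Their median log2 difference was -0.37 against -1.12 for the 12 cytosolic ones, and that difference between lists was not tested. Of all genes 16.3% were higher in EA15. Every gene of these lists lay above the 40th percentile of mean signal, where 26.1% were.

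The markers of Ba/F3 cells moved with the blocks as well. The interleukin-3 receptor chains Il3ra, Csf2rb and Csf2rb2 and the leukocyte antigen Ptprc were higher in EA20, 4 of 8 measured markers, against 17.3% of all genes. The list's summed signal was 21167 to 22809 in EA15 and 53633 to 58867 in EA20. The B-lineage markers Cd79a, Ebf1, Vpreb1 and Igll1 were dim in both, with mean signals under 100. Of 7 mast cell, basophil and eosinophil markers 4 were higher in EA20, namely Ms4a2, Gata2, Epx and Prg2, the last 92.9-fold. Kit, Fcer1a and Cpa3 did not pass and had mean signals under 100. The list's sums were 7162 to 8539 in EA15 and 31139 to 37381 in EA20, carried mostly by Gata2 and Prg2.

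In the same comparison 1 of 2 erythroid markers (Klf1), 1 of 4 T cell markers (Cd3g) and 2 of 4 macrophage markers (Adgre1 and Csf1r) were higher in EA20. Of all genes 17.3% were. The macrophage marker Lyz2 was higher in EA15, where 16.3% of all genes were. Sums in EA15 against EA20 were 1593 to 2428 against 3404 to 4123 (erythroid), 144 to 164 against 391 to 460 (T cell) and 1113 to 1153 against 1409 to 1618 (macrophage). Hba-a1, Cd3e, Cd4 and Cd8a had mean signals under 100. The rises of the erythroid and T cell sums thus rest on Klf1 and Cd3g. The part of these shifts in the ATF4 result was not tested.

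Against that, doxycycline moved the 38 genes little, and none passed. With the block in the fit, limma called 0 of 38, while over all genes it called 0.148% higher and 0.0495% lower with doxycycline. At an unadjusted p under 0.05, 9 were lower and 1 higher, against 5.26% and 5.82% of all genes. For the 35 brighter genes the log2 differences, Dox(+) minus Dox(-), ran from -0.37 to 0.25, and their 95% intervals lay within -0.65 to 0.80. For 30 of the 38 the difference was under 0, against 49.3% of all genes. The genes share the same arrays and are not independent, so these counts carry no test.

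Among the brighter genes the lowest values were those of Phgdh, Shmt2 and Mthfd2, while the serine enzymes Psat1 and Psph were at -0.11 and 0.01. Shmt2 was at -0.32 (SE 0.06, limma adjusted p 0.11), with the treated array below the untreated in EA15 and both treated arrays below both untreated in EA20. Its other probe sets gave -0.26 (mean signal 2620.4), 0.52 (358) and -0.03 (248), while the brightest had a mean signal of 3835. Their average with the brightest, each counted equally, was -0.02 (limma adjusted p 0.98). Phgdh was at -0.37 (SE 0.10, limma adjusted p 0.20), from -0.10 in EA15 and -0.51 in EA20. Its other probe sets gave smaller values of -0.27, -0.19 and -0.19, at mean signals of 4294, 7699 and 1807. Mthfd2 was at -0.24 (SE 0.10, limma adjusted p 0.39). Asns was at -0.18 (SE 0.09, limma adjusted p 0.51).

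Of the 7 transporters 6 were under 0. Slc7a5 was at -0.20 (SE 0.06, limma adjusted p 0.25), Lars at -0.22 (0.06, 0.21) and Tars at -0.15 (0.06, 0.35). All 12 synthetases were under 0, from -0.22 to -0.02 (median -0.11), and 10 of them were under 0 in both blocks. Aars, with the largest block difference of the 12, was at -0.06 (SE 0.09).

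Regulators had no shared direction. Ddit3 was at 0.25 (SE 0.10, limma adjusted p 0.38), with 0.19 in EA15 and 0.28 in EA20, the largest positive value of the brighter genes. Atf4 was at -0.05 (95% interval -0.19 to 0.09), Trib3 at 0.03 (-0.20 to 0.26) and Nupr1 at -0.01 (-0.46 to 0.44). Slc7a11 was at 0.09 (-0.37 to 0.55) and Ddit4 at -0.06 (-0.21 to 0.09). Vldlr was at 0.65 (SE 0.45), resting on 1 untreated EA20 array with a signal of 1.71, and Atf3 at -0.78 (SE 0.40); both were dim.

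**Figure D4:**
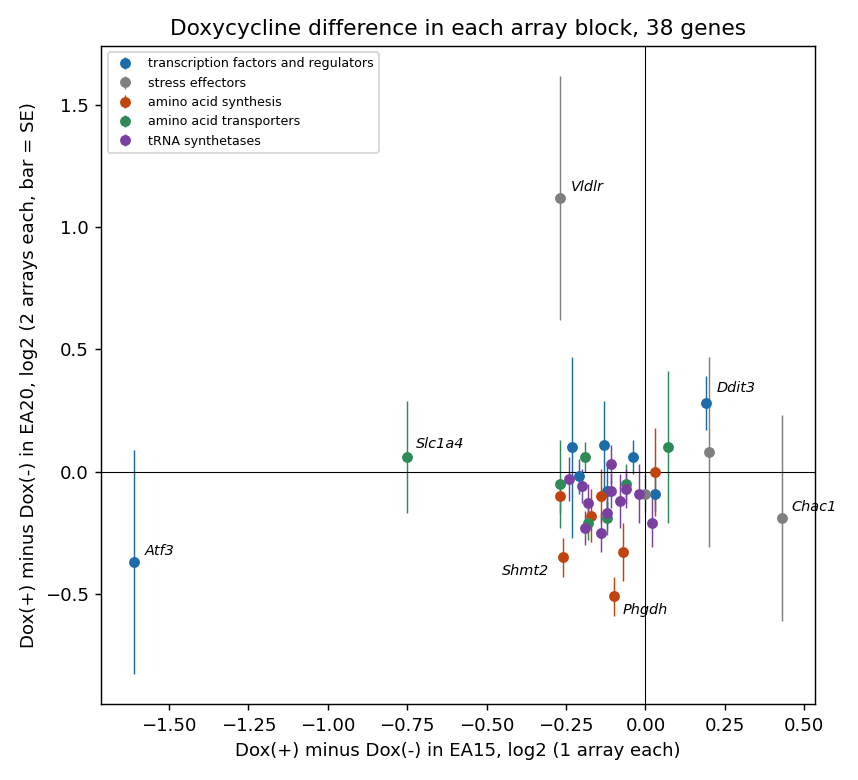
Doxycycline difference (Dox(+) minus Dox(-), log2) of the 38 genes in EA15, from 1 array of each group and so with no error, against that in EA20, from 2 arrays of each group with the SE as a bar. Most points lie near 0 in the lower left; Ddit3 is above 0 in both blocks and Shmt2 and Phgdh are lowest in EA20 apart from the dim Atf3.

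In EA20 alone, 0 of 38 passed by limma, where 0.302% of all genes were higher and 0.110% lower with doxycycline. At an unadjusted p under 0.05, 8 were lower and 1 (Ddit3) higher, against 6.34% and 6.67% of all genes. Phgdh came nearest, with a limma adjusted p of 0.068. Both treated arrays lay below both untreated ones for 11 genes and above them for 3, against 20.9% and 21.6% of all genes. In both blocks 24 of the 38 were lower with doxycycline, against 25.8% of all genes.

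The interaction of doxycycline with block was past the limma threshold for 0 of 38 genes and 0 of all genes, and at an unadjusted p under 0.05 for 2 of 38, against 6.72% of all genes. Without the block in the fit, 0 of 38 passed and 0 of 38 had an unadjusted p under 0.05, against 2.58% of all genes, since each group then mixes arrays of both blocks: the SE of Trib3 was 1.21 in place of 0.10.

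Pathway genes outside the 38 did not pass for doxycycline in the fit with the block: 0 of 16 other ATF4 targets, 0 of 7 eIF2alpha genes, 0 of 7 cytosolic and 0 of 16 mitochondrial synthetases and 0 of 3 scaffold genes. At an unadjusted limma p under 0.05 there were 7 lower and 1 higher among the targets, 1 lower among the cytosolic synthetases and 0 in the other lists. Of all genes, 5.26% were lower and 5.82% higher at that limit. The lowest p among the targets were those of Gadd45a, at -0.38 (SE 0.07, limma adjusted p 0.092), and Jdp2, a bZIP repressor, at -0.34 (0.08, 0.17). In EA20 alone Ero1a rose by 0.60 (limma adjusted p 0.029), with -0.06 in EA15. Of the 7 mast cell, basophil and eosinophil markers, 4 were higher with doxycycline at an unadjusted limma p under 0.05, against 5.82% of all genes. Prg2 passed, 1.33-fold higher (limma adjusted p 0.028), and in EA20 alone Ms4a2 passed, at 0.76 (limma adjusted p 0.030). The part of these markers in the values was not tested.

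In the remaining lists the lowest p belonged to Eif2ak1, the haem-regulated kinase, at 0.23 (SE 0.11) and Ppp1r15a at -0.14 (0.07), to Kars (lysine) at -0.18 (0.06) and Qars (glutamine) at -0.11 (0.06), to Nars2 at 0.18 (0.09) and Pars2 at -0.19 (0.10), and to Eef1e1 at -0.15 (0.07) and Aimp1 at -0.13 (0.06). Their limma adjusted p ran from 0.31 (Kars) to 0.56 (Pars2).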

How the data were processed

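RNA was measured on 6 Affymetrix mouse arrays. The authors deposited linear signal intensity per probe set, which the submitters' processing notes link to Affymetrix Expression Console without an algorithm or version. The deposited signals average 500 on each array after 2% is trimmed at each end, which hides any change in total mRNA. Median signals were 56.5 to 65.9. The number of arrays limits the precision, and no detection calls were used.

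Of 45101 probe sets, 64 were controls, 34945 had 1 gene symbol in the platform annotation, 932 several and 9160 none; updating symbols through Entrez identifiers changed 0. The brightest probe set on average stood for each gene. Signals were taken as log2(signal + 16) and fitted on all genes with limma 3.58.1 in R 4.3.3 (eBayes with a mean-variance trend; doxycycline and array block as terms; two-sided). The fits were run on data simulated from the fitted model with independent errors. That checks the code and cannot test whether the lone EA15 arrays vary like those of EA20 or whether arrays share error. Groups came from the source names. Replicate numbers follow accession order and pair nothing.

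The genes and lists were chosen with earlier results of these data known. Values on each array are given for genes past the threshold for doxycycline, for the smallest p for doxycycline and for block in each role group, and for Atf4, Ddit3, Trib3, Asns, Shmt2, Slc7a11 and Aars. Per-array values of further genes, the context genes named for the block difference and the searched motif were chosen after values were seen. In each context list the 2 genes with the smallest p for doxycycline are named.

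The alternatives were no block, EA20 alone, pseudocounts of 1 and 64, array weights, a robust prior, no trend, median centring, quantile normalization, a filter at the 40th percentile of signal, the average over a gene's probe sets, dropping _s_at, _x_at and _a_at probe sets, and omitting each array in turn. Testing each probe set by itself was added after seeing the data.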

Additional observations from a re-analysis of the deposited data

How the results depend on the processing

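The number of the 38 genes past the threshold for doxycycline was 0 in all 18 alternatives. For the block difference it stayed within 1.5 times the 30 called in all 16, from 23 after dropping _s_at, _x_at and _a_at probe sets, where 31 of the 38 could be tested, to 31 with quantile normalization, which added Cebpb. Atf5 and Ddit4 were lost without the mean-variance trend and without either EA15 array or replicate 2 of the Dox(+) group, and Atf5 also without replicate 3 of either group. Without the trend the limma adjusted p of the block difference was 0.0029 for Atf4, 0.0022 for Trib3 and 0.0038 for Asns. Each gene had 3 residual degrees of freedom, so the smaller p-values and the intervals rest on variance that limma shares over genes. Over all genes, the 36 doxycycline calls became 0 without the block, 75 in EA20 alone, 0 without the trend, 130 without dim genes, 13 when a gene's probe sets were averaged, 61 and 22 with pseudocounts of 1 and 64, and 0 to 60 when single arrays were left out (0 without replicate 3 of the Dox(-) or replicate 2 of the Dox(+) group); the cause was not tested. The median block difference of all genes was 0.04, and -0.01 with quantile normalization and -0.09 with median centring, while that of the 38 genes was -1.08, -1.03 and -1.20. No paired analysis was possible because the labels give no replicate numbers. With 1 array per group, EA15 has no error of its own, and a fit that leaves out 1 of its arrays assumes that the other varies like those of EA20.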
